A study of Mus musculus with 6 samples.

Results

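The genes described here encode chromatin regulators that were bound by miRNAs in AGO2 CLASH, an assay in which a miRNA held by AGO2 is ligated to the mRNA fragment beneath it, and every read then shows which miRNA sat on which gene. They were chosen by gene symbol. Morf4l2 and Fam60a were joined by every target whose symbol begins with Kdm, Kmt, Setd, Smarc, Hdac, Arid, Chd, Kat, Brd, Tet, Dnmt, Cbx, Phf, Ezh or Ash followed by a number, or with Smarc and a letter from a to e. This gave 56 of 3200 target genes and 483 of 15680 hybrid reads (3.08%), bound by 54 of 298 miRNAs in 186 of 8181 miRNA-gene pairs. All libraries were made from P19, an established mouse embryonic carcinoma line. The WT group was the parental line with both Dicer1 alleles intact. The HM group carried the hotspot mutation E1797G in the RNase IIIb domain on one Dicer1 allele and a frameshift loss-of-function mutation on the other. HM was derived through a clonal heterozygous knockout line, so genotype and clone cannot be told apart. Each genotype had 3 libraries.

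Chromatin regulators set how tightly DNA is packed and which genes can be read. Writers and erasers add or remove methyl and acetyl groups on histones, readers bind those groups through chromodomains, bromodomains or PHD fingers, remodellers slide or evict nucleosomes, and Tet and Dnmt enzymes change methylation of the DNA itself. A miRNA finds its target mainly through its seed, the bases 2 to 8 from its 5′ end. In a miRNA hairpin RNase IIIb of Dicer cuts the 5p arm and RNase IIIa the 3p arm, and the strand that AGO2 does not normally keep is called the passenger.

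Library totals ranged from 1621 to 5341 hybrid reads, with 1621 to 2331 in WT and 1661 to 5341 in HM, and each library held 53 to 157 reads on chromatin regulators. Up to 3 reads remain possible behind a 0, which was 0.562 to 1.85 reads per 1000 hybrids; such limits and the intervals below cover counting error only. In a chi-square permutation test of miRNA counts, no difference was detected between HM 1 and HM 2 (p = 0.379), WT 1 and WT 2 (p = 0.335) or the other HM pairs, whereas WT 3 differed from WT 1 (permutation p = 0.0135) and from WT 2 (permutation p = 0.0002). All libraries were kept separate. The 3p strands of 10 pluripotency miRNAs of the miR-302, miR-367 and miR-290 to miR-295 groups made up 28.4% to 31.0% of hybrids in the WT libraries and 55.9% to 57.9% in the HM libraries, with miR-290a-3p at 1 read in all, and 6 miRNAs of muscle, liver, neurons and blood were at 0 in every library. Of 3p hybrids alone, the 10 had 598 of 916, 722 of 1091 and 460 of 701 in WT (libraries 1 to 3). In HM the 10 had 942 of 1585, 2988 of 5113 and 1620 of 2670. No rise was therefore seen over 3p hybrids alone, and each HM share was below each WT share.

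The miRNAs with most reads on chromatin regulators fell into few seed groups. Their mature sequences, from RefSeq on GRCm38.p6 with the seed in capitals, are shown to make those groups visible. Of the 54 miRNAs, 51 had a RefSeq sequence, and 48 of these had the same seed at the most common start in the hybrid reads. miR-302a-3p and miR-292a-3p are named only.

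miR-302b-3p, chr3:127545275-127545297, + strand: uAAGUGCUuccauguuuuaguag
miR-302d-3p, chr3:127545665-127545687, + strand: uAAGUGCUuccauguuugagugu
miR-294-3p, chr7:3220691-3220712, + strand: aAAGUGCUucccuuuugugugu
miR-20b-5p, chrX:52742159-52742181, - strand: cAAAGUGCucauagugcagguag
miR-106a-5p, chrX:52742541-52742563, - strand: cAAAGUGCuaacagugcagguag
miR-93-5p, chr5:138165574-138165596, - strand: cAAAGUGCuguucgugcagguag
miR-17-5p, chr14:115043684-115043706, + strand: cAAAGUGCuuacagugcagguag
miR-367-3p, chr3:127545779-127545800, + strand: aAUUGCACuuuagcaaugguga
miR-130a-3p, chr2:84741116-84741137, - strand: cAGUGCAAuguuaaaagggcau
miR-301a-3p, chr11:87113054-87113076, + strand: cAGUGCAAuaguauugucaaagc
miR-19b-3p, chr14:115044358-115044380, + strand: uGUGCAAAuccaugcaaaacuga
miR-298-5p, chr2:174267553-174267575, - strand: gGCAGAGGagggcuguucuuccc
miR-20b-3p, chrX:52742122-52742143, - strand: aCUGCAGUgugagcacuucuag

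The miR-302 seed AAGUGCU, carried here by miR-302a, miR-302b, miR-302d, miR-291a, miR-294 and miR-295-3p, is a 1-base shift of the miR-17 family seed AAAGUGC, carried by miR-17, miR-20a, miR-20b, miR-93 and miR-106a-5p. A target with GCACTTT therefore matches the whole miR-17 family seed and also 6 bases of the miR-302 seed. The first group lies on 3p arms and the second on 5p arms.

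A choice of target fragments, all from sites with a seed match, is shown next, so that each miRNA can be set against its site. They are pieces of 3′ untranslated regions as the hybrids gave them, 5′ to 3′, cut to at most 30 bases; capitals mark the match to the seed of the miRNA with most reads there, with the A opposite its first base where present. Fragments of 1 gene that shared a run of 14 bases were counted as 1 site. The build that the reads were mapped to is not given in the sources used here, so no position is printed. Sites without a seed match are not printed. Of these, Cbx6 site 1 had 12 reads, and Chd9 site 1 and Kdm2a site 3 had 5 reads each, with 0 seed-matched reads at all of them. Over all libraries, 31.3% of reads on chromatin regulators had no match of 6 or more bases, beside 41.3% on other genes.

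Kmt2a site 1, miR-302b-3p: tgaAGCACTTcatagggagaAGCACTTAtg
Kmt2a site 2, miR-130a-3p: ttccttcttaTTGCACTgtg
Setd5 site 1, miR-302b-3p: gggttttatGCACTTAaggg
Kdm2a site 1, miR-302b-3p: gtcctttgttGCACTTActt
Kdm2a site 2, miR-19b-3p: gagcttTTTGCACtttagaa
Arid4b site 1, miR-302b-3p: cttgGCACTTAagtGCACTTttttat
Smarcd2 site 1, miR-301a-3p: tgggtatTTGCACTAtttgggg
Setd2 site 1, miR-93-5p: tgcttcagatCACTTTActt
Fam60a site 1, miR-20a-5p: tgtagtcatGCACTTTgtat
Morf4l2 site 1, miR-298-5p: gtaaacagcccatCCTCTGCAag

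In both genotypes the chromatin regulators took a similar part of all hybrids, while the miRNAs that bound them changed. They held 2.95%, 2.79% and 3.27% of the WT hybrid reads (libraries 1 to 3) and 3.19%, 2.94% and 3.50% of the HM hybrid reads, which gave means of 3.00% ± 0.24 (SD, n = 3) and 3.21% ± 0.28 (SD, n = 3). The 2 ranges overlapped. The share of their hybrids that carried a 5p-miRNA was 54.4%, 46.2% and 39.6% in WT and 0%, 0.637% and 1.02% in HM. The HM libraries were all below the WT libraries. Over all other genes the same share was 54.2% ± 2.55 (SD, n = 3) in WT and 4.02% ± 0.32 (SD, n = 3) in HM. In HM only 2 reads on chromatin regulators carried a 5p-miRNA. Both were miR-20b-5p, on Kmt2a in HM library 3 and on Kmt2b in HM library 2, and their fragments shared a run of 18 bases, so the gene of these reads is uncertain. In all, 15 reads on 5 of the genes shared 16 or more bases with a fragment assigned to another gene.

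The miR-302 seed had the most reads on chromatin regulators over all libraries, with 238 of 483, although in WT it had 50 and the miR-17 family seed 51. On chromatin regulators it held 26.3%, 26.2% and 34.0% of the WT hybrids (libraries 1 to 3) and 52.8%, 61.8% and 64.3% of the HM hybrids. On all other genes it held 18.4% to 19.0% in WT and 35.0% to 37.4% in HM. The share on chromatin regulators was above that on other genes in 6 of 6 libraries. Without Kmt2a, the member with most reads, the shares were 14.6%, 19.6% and 26.8% in WT and 44.7%, 50.0% and 51.6% in HM, above other genes in 5 of 6 libraries. The miR-17 family seed went the other way, from 29.8%, 33.8% and 22.6% in WT to 0%, 0.637% and 1.02% in HM, beside 32.8% ± 1.71 (SD, n = 3) and 1.75% ± 0.22 (SD, n = 3) on other genes. The miR-367 seed, which miR-92a-3p and miR-25-3p share, was scarcer on chromatin regulators, with 8.70% of their reads against 21.4% on other genes. All these shares are of hybrids of both arms, so a 3p seed takes a larger share where 5p hybrids are few, as in HM. Of 3p hybrids on chromatin regulators alone, the miR-302 seed had 15 of 26, 17 of 35 and 18 of 32 in WT. In HM it had 28 of 53, 97 of 156 and 63 of 97, and these shares overlapped between genotypes. The shares are descriptions of pooled reads and of libraries, without a test.

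**Figure D1:**
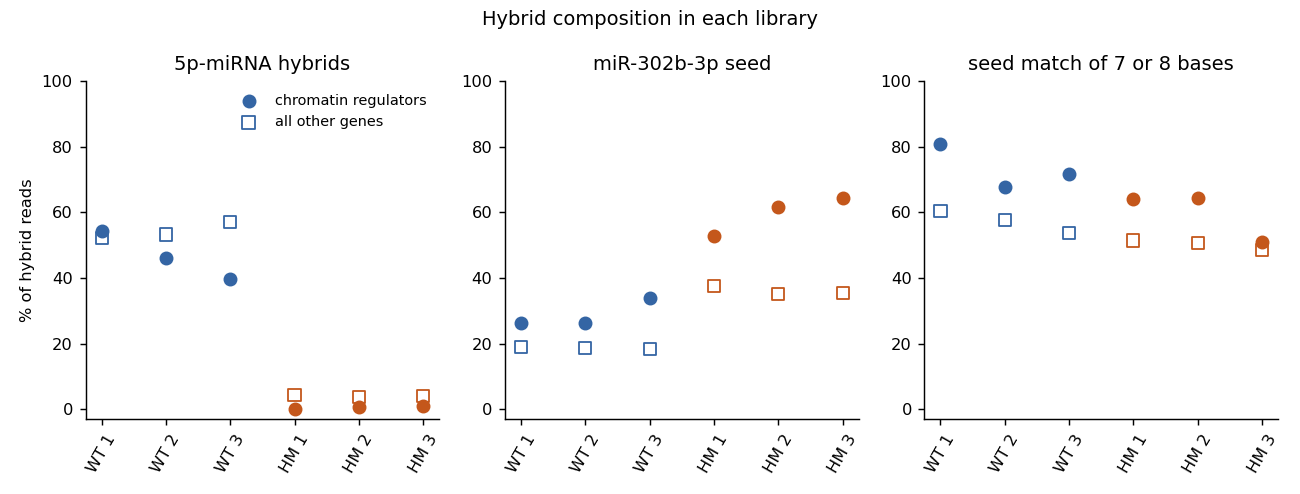
Percent of hybrid reads in each of the 6 libraries (WT blue, HM orange) that carried a 5p-miRNA, the miR-302b-3p seed, or a seed match of 7 or 8 bases; filled circles are the chromatin regulators and open squares all other genes. The 5p share fell from 39.6% or more in WT to at most 1.02% in HM on chromatin regulators, and the miR-302b-3p seed share was above that of other genes in every library, or in 5 of 6 without Kmt2a.

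By single miRNAs, miR-302b-3p came first with 128 reads on 14 genes, 22 in WT and 106 in HM. miR-302a-3p had 47 reads, miR-302d-3p 39 and miR-367-3p 31, followed by miR-130a-3p with 22, miR-19b-3p with 18, miR-294-3p with 17, miR-301a-3p with 16, miR-292a-3p with 15 and miR-20b-5p with 14. miR-106a-5p, miR-93-5p and miR-298-5p had 12 reads each, all in WT. Among miRNAs with at least 20 reads on chromatin regulators, those with the largest share there relative to their share on other genes were miR-130a-3p (ratio 2.00), miR-302b-3p (1.72) and miR-302a-3p (1.62), and miR-367-3p was lowest at 0.43. Besides these, only miR-302d-3p (1.37) reached 20 reads. Kmt2a held 10 of the 22 reads of miR-130a-3p, 54 of the 128 of miR-302b-3p and 20 of the 47 of miR-302a-3p. The passenger strand miR-20b-3p had 0 reads in WT and 8 in HM, spread over 6 genes: Arid4b, Kmt2c, Cbx1, Cbx6, Smarce1 and Tet3. miR-30a-3p likewise had 0 reads in WT and 6 in HM, on Kmt2a, Arid3b, Chd4, Kdm5a and Tet3. On all other genes miR-20b-3p had 4 reads in WT and 170 in HM, and miR-30a-3p had 7 and 167. Of the HM reads, miR-20b-3p held 2.60% on chromatin regulators and 1.79% on other genes, and miR-30a-3p 1.95% and 1.76%. Another passenger, miR-17-3p, had 0 WT and 2 HM reads on chromatin regulators, beside 7 and 239 on other genes. No pair of miR-20b-3p or miR-30a-3p with one of these genes exceeded 2 reads, which is too few for a test.

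Seed pairing in the fragments was frequent. A match of 7 or 8 bases to the seed of the miRNA in the same hybrid (the 7 seed bases, or 6 of them with the A opposite base 1) was present in 80.7%, 67.7% and 71.7% of hybrids on chromatin regulators in WT and in 64.2%, 64.3% and 51.0% in HM. On other genes it was present in 53.6% to 60.3% in WT and 48.5% to 51.4% in HM. Without Kmt2a the HM shares were 55.3%, 53.6% and 40.6%, so that HM library 3 was then below other genes. The letters GCACTT, read on the strand of the mRNA only and contained in AGCACTT and GCACTTT, occurred in fragments of 44.1% of reads on chromatin regulators and 22.6% of reads on other genes. AGCACTT, the whole match to the miR-302 seed, occurred in 22.2% and 8.69%, whereas GCACTTT occurred in 9.52% and 11.3%. Both comparisons of 7 letters turned without Kmt2a, when AGCACTT occurred in 5.32% and GCACTTT in 12.3% of reads on chromatin regulators, while GCACTT occurred in 34.5%.

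Of the 56 genes, 12 reached the minimum of 10 reads over all libraries and were tested, 27 had 2 to 9 reads and 17 had 1 read. The 12 held 361 of the 483 reads (74.7%). Reads per gene were compared between genotypes with edgeR's quasi-likelihood test, relative to the total of all hybrids in a library, over all 344 genes with at least 10 reads. Among the 12, 3 were lower in HM (Setd2, Fam60a and Morf4l2) and 1 was higher (Setd5), at an adjusted p under 0.05. Of all 344 genes, 10.8% were called lower and 5.81% higher. Fam60a and Morf4l2 entered the set by name and not by symbol prefix, so the count of lower genes cannot be read as a result about chromatin regulators. Every HM library was below every WT library for 3 of the 12 and above for 3, and over all 344 genes these arrangements occurred in 14.2% and 16.6%. The median log2 fold change was -0.28 for the 12 and 0.27 for all 344 genes. When the total of 3p hybrids was the library size instead, the median over all genes was -0.75, so a change is to be read against these medians. Hybrid counts also depend on how much of an mRNA is present, and the part of mRNA levels in these results was not tested.

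**Figure D2:**
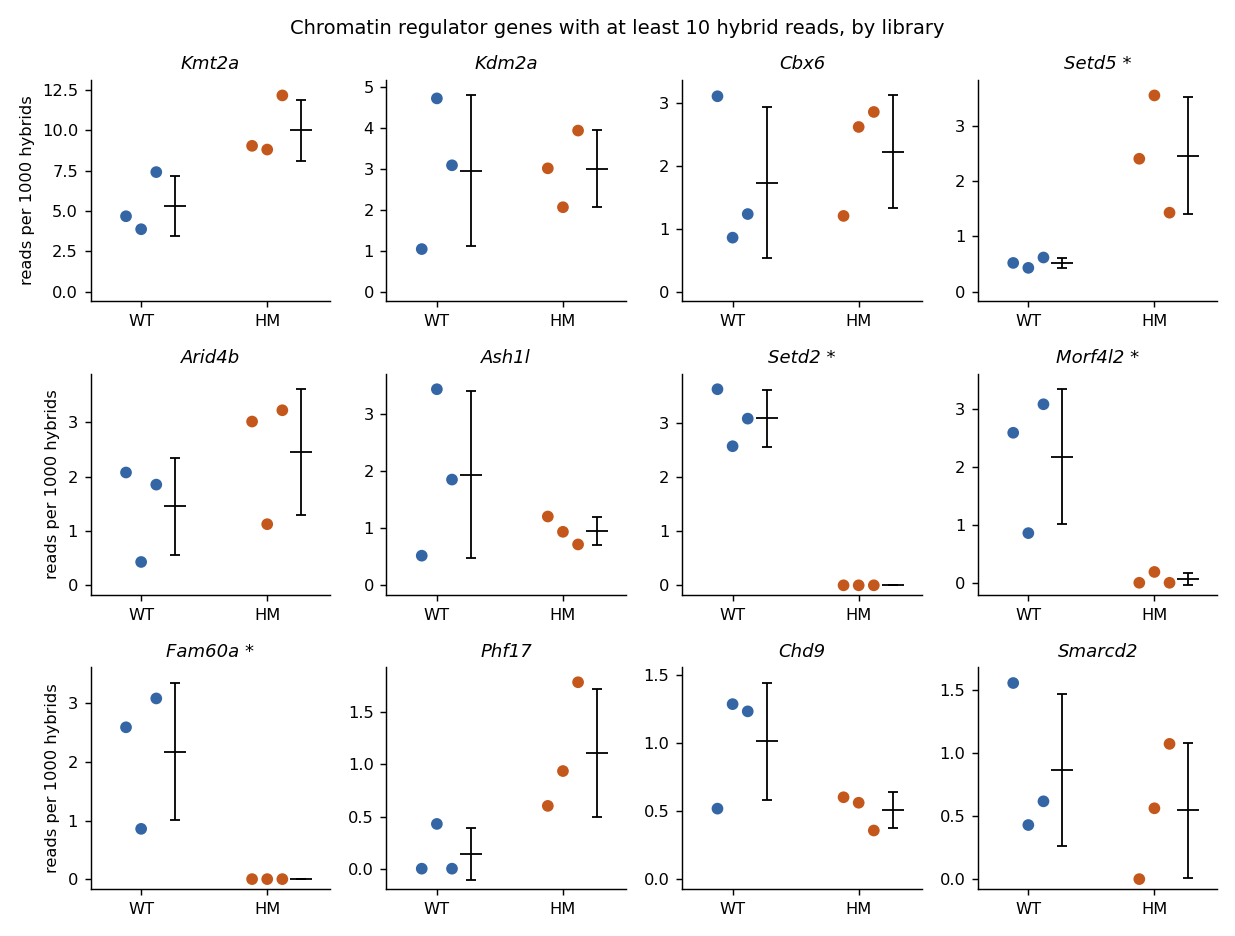
Reads per 1000 hybrids of the 12 tested chromatin regulators, with 1 point per library (WT blue, HM orange; libraries 1 to 3 from left to right) and the mean ± SD in black; an asterisk marks an adjusted p under 0.05, and each panel has its own scale. Setd2 and Fam60a were at 0 in the 3 HM libraries, and the 3 HM libraries of Setd5 and Kmt2a lay above the 3 WT libraries.

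The methyltransferases and their partners held the most reads, 218 on 12 genes, of which 76 were in WT and 142 in HM. Kmt2a, a histone methyltransferase of active promoters, was the most bound chromatin regulator, with 126 reads (26.1% of all). It had 9, 9 and 12 WT reads and 15, 47 and 34 HM reads (libraries 1 to 3), or 4.67, 3.86 and 7.40 per 1000 hybrids in WT and 9.03, 8.80 and 12.2 in HM. All HM libraries were above all WT libraries. The log2 fold change was 0.94 ± 0.36 (SE) with an adjusted p of 0.053 (edgeR), which missed the threshold. With 3p hybrids as the library size it was -0.11, with an adjusted p of 0.874 (edgeR), and without WT library 3 the adjusted p was 0.0139 (edgeR). Over its 14 alternatives the adjusted p ranged from 0.0139 to 0.874, with 3 under the threshold.

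Most of this came from a single stretch. Kmt2a site 1 holds 2 matches to the miR-302 seed whose starts lie 17 bases apart, the second with the A opposite base 1, and it had 7, 6 and 5 WT reads and 10, 38 and 22 HM reads. The whole printed stretch was present in 57 of its 88 fragments. All 88 reads there were of 3p-miRNAs and all had a seed match: 45 of miR-302b-3p, 17 of miR-302a-3p, 11 of miR-294-3p, 10 of miR-302d-3p and 5 of 3 others. The pair of miR-302b-3p and Kmt2a, the most frequent of all pairs on chromatin regulators, had 1, 0 and 5 WT reads and 6, 26 and 16 HM reads. Its log2 fold change relative to 3p hybrids was 1.17 ± 0.59 (SE; edgeR adjusted p = 0.202), with an adjusted p of 0.0045 without WT library 3 (edgeR), whose 5 reads were most of the WT reads, and a range of 0.0009 to 0.889 over 14 alternatives. miR-302d-3p on Kmt2a had 3, 3 and 1 WT reads and 1, 4 and 2 HM reads, and miR-302a-3p on Kmt2a had 2, 2 and 1 WT reads and 2, 6 and 7 HM reads; neither was called. Kmt2a site 2, with 19 reads, was bound mainly by miR-130a-3p (8 reads) and miR-302b-3p (6 reads).

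Setd2, which methylates histone H3 along transcribed genes, had hybrids in WT only. It had 7, 6 and 5 WT reads (libraries 1 to 3) and 0 in each HM library, or 3.63, 2.57 and 3.08 per 1000 hybrids in WT. The groups did not overlap. Against 3 reads per HM library it was at least 2.70-fold lower in HM, with an adjusted p of 1.9e-05 (edgeR). All 18 reads lay on 1 site and came from the miR-17 family: 8 of miR-93-5p, 5 of miR-106a-5p, 3 of miR-17-5p and 2 of miR-20b-5p. The site matches 6 seed bases of that family followed by A. None of its 18 fragments held GCACTT, the 6-base match to the miR-302 seed.

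Setd5, a SET-domain protein, was the gene called higher. It had 1, 1 and 1 WT reads and 4, 19 and 4 HM reads, or 0.518, 0.429 and 0.617 per 1000 hybrids in WT and 2.41, 3.56 and 1.43 in HM. Every HM library was above every WT library. The ratio of HM to WT reads per hybrid was 5.40 (95% exact interval 1.66 to 27.8, counting error only), and the adjusted p was 0.033 (edgeR). The call rested on HM library 2 (adjusted p = 0.305 without it, edgeR) and on each WT library (0.0775, 0.131 and 0.0699 without WT libraries 1, 2 and 3, edgeR). It was absent with 3p hybrids as the library size (0.338, edgeR) and with HM libraries 1 and 2 summed (0.051, edgeR). Over 14 alternatives the adjusted p ranged from 0.0246 to 0.338, and 4 were under the threshold. All 30 reads were of 3p-miRNAs, and 25 lay on site 1, of which 20 had a seed match. On that site miR-302b-3p had 8 reads and miR-302a-3p, miR-302d-3p and miR-367-3p had 4 each.

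Ash1l, another histone methyltransferase, had 1, 8 and 3 WT reads and 2, 5 and 2 HM reads. The groups overlapped, and the log2 fold change came to -1.10 ± 0.72 (SE; edgeR adjusted p = 0.357). It was called lower with 3p hybrids as the library size (-2.12, edgeR adjusted p = 0.0219), 1 of 13 alternatives over which the adjusted p reached 0.902, and it was -0.28 without WT library 2. Its reads were scattered, and no site had more than 2.

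The deacetylase and Sin3 group held 43 reads on 4 genes. Fam60a (current symbol Sinhcaf), a subunit of the Sin3 histone deacetylase complex, had 5, 2 and 5 reads in WT and 0 in each HM library, or 2.59, 0.858 and 3.08 per 1000 hybrids in WT. The groups did not overlap. Against 3 reads per HM library it was at least 1.90-fold lower in HM, with an adjusted p of 0.0011 (edgeR). The gene fell under 10 reads without WT library 1 or WT library 3 and was then not tested. Of the 12 reads, 11 were of 5p-miRNAs, and 10 of these lay on site 1: 4 of miR-20a-5p, 3 of miR-20b-5p, 2 of miR-106a-5p and 1 of miR-17-5p. Each of its 10 fragments held GCACTTT, and so also the 6-base match to the miR-302 seed, yet 0 reads of a miRNA with that seed were listed on Fam60a in either genotype. The authors kept only pairs predicted by TargetScan, which limits what could be listed there.

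Arid4b, which belongs to the same complex, had 4, 1 and 3 WT reads and 5, 6 and 9 HM reads. The groups overlapped, and the log2 fold change was 0.63 ± 0.69 (SE; edgeR adjusted p = 0.581). Its sites were shared between the arms. Arid4b site 1, which holds 2 matches of 6 or 7 bases to the miR-302 seed with starts 10 bases apart, had 3 reads of 5p-miRNAs and 2 of 3p-miRNAs in WT, and 0 and 9 in HM. Only 3 of its 14 fragments held the whole printed stretch. The 5p reads there were 2 of miR-20b-5p and 1 of miR-20a-5p, and the 3p reads were 6 of miR-302b-3p, 4 of miR-302d-3p and 1 of miR-292a-3p. Arid4b site 2 had 1 read of a 5p-miRNA and 1 of a 3p-miRNA in WT, and 0 and 5 in HM.

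Among acetyltransferases and partners, with 26 reads on 4 genes, Morf4l2 (an MRG-family subunit of histone acetyltransferase and deacetylase complexes) had 5, 2 and 5 WT reads and 0, 1 and 0 HM reads. That is 2.59, 0.858 and 3.08 per 1000 hybrids in WT against 0, 0.187 and 0 in HM, and the groups did not overlap. The ratio of WT to HM reads per hybrid was 20 (95% exact interval 2.96 to 855, counting error only), with an adjusted p of 0.0064 (edgeR). It was not tested without WT library 1 or WT library 3, when fewer than 10 reads were left. Of its 12 WT reads, 11 were of miR-298-5p, all on site 1, which matches the 7 seed bases of miR-298-5p and has the A opposite base 1. The pair had 5, 1 and 5 reads in WT and 0 in each HM library, at least 3.75-fold lower in HM relative to 3p hybrids (edgeR adjusted p = 2.8e-05), and it was the only pair called among the 10 pairs on chromatin regulators with at least 10 reads. The bound is larger than it would be over all hybrids, since 3p hybrids were a smaller part of all hybrids in WT than in HM. Of all 140 pairs tested, 13.6% were called lower and 2.14% higher (19 and 3 pairs). These shares depend on the scaling: with totals of all hybrids as the library size, 13 pairs were called lower and 20 higher. The other tested pairs were miR-302b-3p with Kdm2a (4 WT and 15 HM reads), Cbx6 (3 and 14), Arid4b (1 and 9) and Setd5 (1 and 9), and miR-294-3p (3 and 9) and miR-130a-3p (3 and 7) with Kmt2a. None of these was called. Over all genes miR-298-5p had 31 reads in WT and 0 in HM, and Morf4l2 held 11 of the 31. Kat6a, a MYST-family acetyltransferase, had 0, 1 and 1 WT reads and 1, 3 and 1 HM reads.

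**Figure D3:**
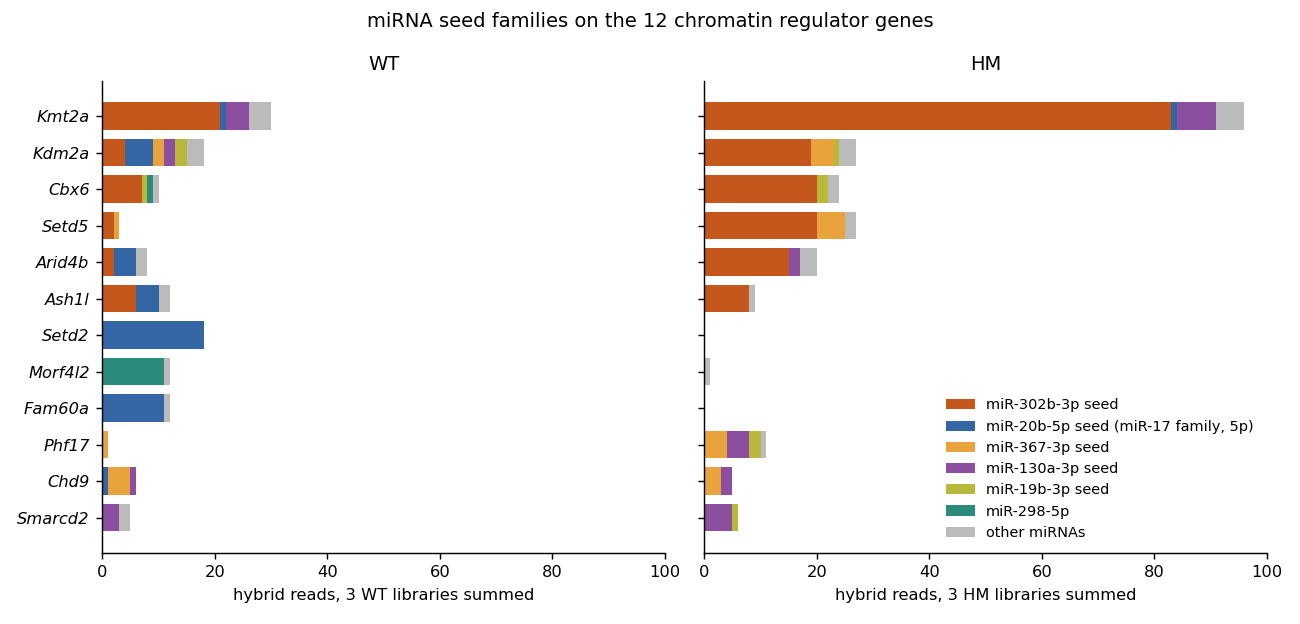
Hybrid reads of the 12 tested chromatin regulators, summed over 3 libraries per genotype (x axes, WT left and HM right) and coloured by the seed group of the miRNA. Setd2 and Fam60a were bound by the miR-17 family and Morf4l2 by miR-298-5p in WT, whereas 83 of 96 HM reads on Kmt2a carried the miR-302b-3p seed.

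Demethylases held 58 reads on 6 genes. Kdm2a, a demethylase that binds CpG islands, had 2, 11 and 5 WT reads and 5, 11 and 11 HM reads, and the groups overlapped. The log2 fold change was -0.10 ± 0.52 (SE; edgeR adjusted p = 0.924), and it turned to 0.49 without WT library 2 and to 0.23 without HM library 2, neither called. The miRNAs bound to it differed between genotypes, since 5p-miRNAs had 7 of 18 reads in WT and 0 of 27 in HM. This is not particular to Kdm2a, as the mean 5p share over all other genes was 54.2% in WT and 4.02% in HM. Kdm2a site 2, with 7 reads in all, shows the change at 1 position. In WT it had 3 reads of 5p-miRNAs, 1 each of miR-17-5p, miR-20b-5p and miR-93-5p, and 1 of miR-19b-3p, and in HM it had 1 each of miR-19b-3p, miR-302b-3p and miR-302d-3p. In these fragments the miR-17 family had a match of 8 bases, miR-19b-3p one of 7 and the miR-302 seed one of 6. Kdm2a site 1 had 15 reads, 5 in WT and 10 in HM, all of 3p-miRNAs, and 11 of them were of miR-302b-3p. Kdm5a, which removes methyl groups from histones at promoters, had 1, 0 and 0 WT reads and 0, 5 and 1 HM reads.

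The readers with bromodomains, chromodomains or PHD fingers were the largest class, with 14 genes and 80 reads. Cbx6, a chromodomain protein of Polycomb complexes, had 6, 2 and 2 WT reads and 2, 14 and 8 HM reads. The groups overlapped, and the log2 fold change was 0.49 ± 0.63 (SE; edgeR adjusted p = 0.652), with 1.21 without WT library 1 and 0.11 without WT library 2. Its most bound site had 12 reads, 11 of them of miRNAs with the miR-302 seed, but 0 held a seed match of 6 or more bases, whereas all 7 reads of its next site did. Phf17 (current symbol Jade1), a PHD-finger subunit of histone acetyltransferase complexes, had 0, 1 and 0 WT reads and 1, 5 and 5 HM reads. Every HM library was above every WT library, but the ratio of HM to WT reads per hybrid of 6.60 had an exact 95% interval of 0.96 to 284, and the adjusted p was 0.214 (edgeR). Its first site, bound 4 times by miR-301a-3p, was seen in HM only, with 6 reads.

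Remodellers held 44 reads on 11 genes, none called. Chd9, a chromodomain helicase, had 1, 3 and 2 WT reads and 1, 3 and 1 HM reads (log2 fold change -0.94 ± 0.99, SE; edgeR adjusted p = 0.571). Smarcd2, a subunit of SWI/SNF complexes, had 3, 1 and 1 WT reads and 0, 3 and 3 HM reads (log2 fold change -0.45 ± 1.00, SE; edgeR adjusted p = 0.830). Both overlapped between genotypes. Of the 11 reads on Smarcd2, 9 lay on site 1, bound by miR-301a-3p (5 reads), miR-130a-3p (3) and miR-19b-3p (1), and all 9 had a seed match. The genes of DNA methylation held 13 reads on 4 genes and none could be tested. Tet3, which oxidises methylcytosine, had 0, 1 and 1 WT reads and 0, 1 and 2 HM reads, and Tet2, an enzyme of the same family, and Dnmt3a, a DNA methyltransferase, had 3 reads each. Arid3b, a DNA-binding ARID protein, had 1 read, in HM library 3.

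**Figure D4:**
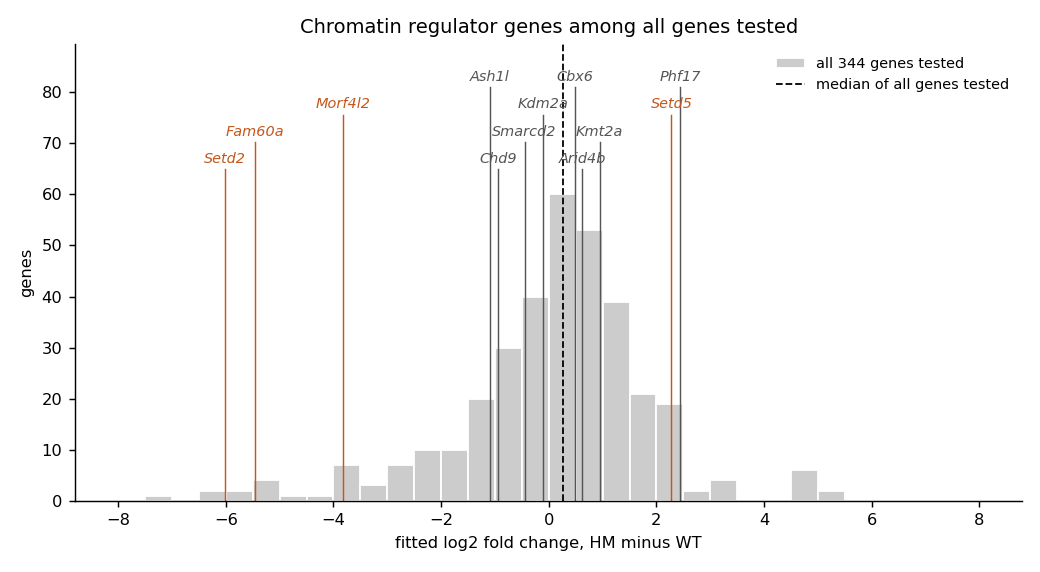
Fitted log2 fold change (HM minus WT, x axis) of all 344 genes tested, as a histogram with the number of genes on the y axis; lines mark the 12 chromatin regulators, in orange where the adjusted p was under 0.05, and the dashed line is the median of all genes, 0.27. Fitted values of Setd2 and Fam60a, which had 0 reads in HM, depend on the prior count of the fit and are no measure of size.

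In the 3 genes called lower, most WT reads came from 5p-miRNAs, which made up 100% of the WT reads of Setd2 and 91.7% of those of Morf4l2 and of Fam60a. Among all 37 genes called lower the median of this share was 96.9% (range 16.7% to 100%), and among the 287 genes not called it was 25.0% (0% to 100%). For the 12 genes called higher that had WT reads the median was 22.5%. The share and the calls use the same WT reads, and 5p hybrids were few in HM over all genes, so a contrast of this kind was to be seen in any case. The part of 5p-miRNAs in the calls was not tested. When only 3p hybrids were counted, relative to their own total, 8 chromatin regulators had at least 10 reads. Setd2, Fam60a and Morf4l2, with 0, 1 and 2 reads of 3p-miRNAs, were not among them. Of the 8, 0 were called by edgeR in either direction, with 0 at an unadjusted p under 0.05 and 0 called by DESeq2; of all 262 genes, 1.91% were called lower and 0% higher. For Setd5 the ratio of HM to WT reads per 3p hybrid was then 2.60 (exact 95% interval 0.801 to 13.4; edgeR adjusted p = 0.510). For Kmt2a the log2 fold change was then 0.08 ± 0.40 (SE; edgeR adjusted p = 0.935). Under the minimum of reads, Brd2, a bromodomain protein, and Setd1b, a histone methyltransferase, had 4 WT reads each, all of 5p-miRNAs, and 0 HM reads; they were picked out after their values were seen and were not tested.

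Of 168 further chromatin genes outside the naming rule, from Polycomb, SWI/SNF, NuRD, acetyltransferase, deacetylase, histone methylation and DNA methylation lists, 76 had a hybrid, with 489 reads in all. Of these, 10 were tested and 0 were called in either direction by edgeR or DESeq2, with 1 at an unadjusted p under 0.05 by each. Their median log2 fold change was 0.14, beside 0.27 for all 344 genes. The most bound, picked out after their values were seen, were Gatad2b, a NuRD subunit, with 72 reads, Rbbp7, a histone chaperone found in several of these complexes, with 46, and Suv420h1 (current symbol Kmt5b), a histone methyltransferase, with 41.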

How the data were processed

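AGO2 CLASH was performed by the authors on 3 WT and 3 HM libraries of P19 cells: UV cross-linking, RNase treatment, AGO2 immunoprecipitation and ligation of miRNA to target. They identified the miRNA part with QuagmiR, aligned the target part with Bowtie2 to 3′ UTRs of mouse coding genes, and kept only pairs predicted by TargetScan. Fragments outside 3′ UTRs and pairs without a predicted site are therefore not counted. Tool versions, genome build, collapsing of duplicates and treatment of fragments that align to several genes are not given in the sources used here. The deposited table gives unscaled read counts per distinct hybrid sequence and library; on these genes 479 of 481 entries had 1 read.

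Genotype came from the sample titles. The titles call the libraries of a genotype biological replicates, without saying whether they came from separate cultures, so p-values measure the spread between these libraries. Reads were summed per gene and per miRNA-gene pair. Features with at least 10 reads were tested with edgeR 4.0.16 (quasi-likelihood, R 4.3.3) and Benjamini-Hochberg adjustment over all features at 0.05. Genes were scaled by the total of all hybrids in a library, and 3p hybrids of genes and pairs by the total of 3p hybrids. Genes with 0 reads in a genotype were compared with 3 reads per library, and those with 1 to 3 reads by the ratio of pooled reads per hybrid with an exact (Clopper-Pearson) 95% interval. The genes named are those called, the 12 with most reads and the 2 with most reads of each class, with ties; pairs are those called and the 10 with most reads. Seeds were read from the most common start of each miRNA, and target names were matched to RefSeq (53 of 56 as current symbols, 3 as synonyms). The genes, classes and lists were chosen with earlier results of these data known. Scripts were tested on simulated data, in Python 3.11.15 with pandas 2.3.3, numpy 2.4.6, scipy 1.17.1 and matplotlib 3.10.9. Alternatives used DESeq2 1.42.0, TMM scaling, minima of 30 reads or none, distinct sequences counted once, each library left out, and a replicate block.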

Additional observations from a re-analysis of the deposited data

How the results depend on the processing

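Setd2 kept its direction and its call in all 13 alternatives in which it was tested. Fam60a, Morf4l2 and the pair of miR-298-5p and Morf4l2 did so in all 11 of theirs. Nearly all these reads were from WT: 18 WT and 0 HM reads for Setd2 and 12 and 0 for Fam60a. Morf4l2 had 12 and 1, and the pair 11 and 0. Without WT library 1 or WT library 3, Fam60a, Morf4l2 and the pair fell under the minimum and were not tested. Their 11 alternatives thus kept most of the WT reads behind the calls and are no independent support. Fam60a and Morf4l2 also entered the set by name, with earlier results known. The number of chromatin regulators called lower (3) ranged from 1 to 3 with single libraries left out, was 4 with 3p hybrids as the library size, Ash1l being the other, and was 0 with at least 30 reads, where none of the 3 reached the minimum. The number called higher (1) ranged from 0 to 1 with single libraries left out. It was 0 with 3p hybrids as the library size, with DESeq2, with no minimum of reads, with the replicate number as a block and with HM libraries 1 and 2 summed, an alternative chosen after seeing the data; it was 2 with distinct sequences counted once, Kmt2a being the other. Pairs called lower (1) were 0 with at least 30 reads and 2 with no minimum, and 0 to 1 with single libraries left out. Pairs called higher (0) were 1 with TMM scaling and 1 with totals of all hybrids, and 0 to 1 with single libraries left out. With 3p hybrids as the library size the log2 fold change was -0.40 for Arid4b, -0.54 for Cbx6 and -0.11 for Kmt2a, the opposite of the main direction, and for Kdm2a it was 0.49 without WT library 2 and 0.23 without HM library 2 (main value -0.10, from -0.51 to 0.49 with single libraries left out). With 3p hybrids as the library size the median over all genes moved as well, from 0.27 to -0.75. 3p hybrids were 916 of 1929, 1091 of 2331 and 701 of 1621 in WT (libraries 1 to 3). In HM they were 1585 of 1661, 5113 of 5341 and 2670 of 2797, so this scaling lowers fold changes in general. The cause of the changes for Kdm2a was not tested.

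The share of hybrids on chromatin regulators (HM minus WT, 0.21 percentage points) was -0.25 without Kmt2a and -0.19 over 3p hybrids only, and ranged from 0.061 to 0.34 with single libraries left out. Their 5p share (HM minus WT, -46.2 points) was -53.3 without Kmt2a and ranged from -49.7 to -42.3 with single libraries left out. Over all genes, 37 were called lower and 20 higher; the counts were 21 and 3 with DESeq2, 68 and 1 with 3p hybrids as the library size, and 22 and 12 with the block. Same-numbered libraries did not deviate together (correlations of -0.060, -0.011 and -0.036). With few reads per gene, counting noise can hide a pairing, so whether the numbers pair the samples is not known. Depth limits the tests: 44 of 56 genes had fewer than 10 reads, and a gene at 0 in a library may have had up to 3.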
